A study of Mus musculus with 6 samples.

Results

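The extracellular matrix and integrin genes of mouse epiblast stem cells were followed while the cells left their maintenance condition for a neural plate condition. The set took every array probe whose RefSeq transcript belongs to a collagen, laminin, integrin, nidogen, fibulin or fibrillin gene by the start of its symbol, and the probes of Fn1 (fibronectin), Tnc (tenascin C), Hspg2 (perlecan) and Vcan (versican). This gave 135 probes of 93 genes, out of 55646 probes and 20274 named genes on the array. The start of the symbol also took in 3 genes that encode no matrix protein or integrin chain (Itgb1bp1, Itgb1bp2 and Itgb3bp), which were counted apart. Of the 93 genes, 75 were tested, because a probe of theirs stood well above background on each array of 1 or more groups, and 65 were so on all 6 arrays. A gene that passed only through the group in which it was bright was bound to differ, so the counts below describe the tested genes and not the whole set.

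Epiblast stem cells (EpiSCs) are pluripotent cells that correspond to the epiblast of the implanted embryo. All cells were of strain 129/Sv. They were kept in the epiblastic maintenance condition (EpiSC) or moved to a condition for neural plate development, for 1 day (NPC1) or for 2 days (NPC2), with 2 cultures, A and B, in each group. All cultures came from 1 seed culture, and the spread behind each p-value is that between these samples and may be technical. The composition of the 2 conditions and the surface on which the cells grew are not given in the sources used here. Each culture's total RNA, labelled with Cy3, was read on its own Agilent 1-colour array, and 1 slide held all 6. Depth is not counted on an array, and the number of arrays limits the precision.

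The label check used marker lists. All 10 tested neural plate markers were higher in NPC2 than in EpiSC, led by Sox1 (log2 change 5.72, adjusted p = 5.86e-06). Of 9 epiblast markers, 7 were lower and 2 were higher. The lower ones included Pou5f1 (-2.66), Fgf5 (-4.26) and Cdh1, the gene of E-cadherin (-2.43). Over all genes tested, 28.3% were higher and 40.7% were lower in this comparison. Cdh2, the gene of N-cadherin, was higher (1.96) and the streak marker T was lower (-4.54). In bulk RNA, fewer cells of a type and less RNA per cell cannot be told apart. Duplicates correlated at r = 0.9971 to 0.9975 over all genes tested, a correlation across genes, and the median absolute log2 difference between duplicates was 0.101 (EpiSC), 0.136 (NPC1) and 0.0948 (NPC2) over the tested matrix and integrin genes.

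As background, cells of an epithelial sheet such as the epiblast or the neural plate rest on a basement membrane. Laminins, each built of an alpha, a beta and a gamma chain, and collagen IV form its 2 networks, which nidogens and perlecan link. Integrins are receptors of an alpha and a beta chain that bind these proteins and couple them to the actin cytoskeleton, and fibronectin, tenascin C, versican, fibulins and fibrillins belong mostly to the looser matrix around cells.

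Intensities are given as the scanner's processed signal after scaling every array to the same 75th percentile (361, from 343 to 374 before scaling), in arbitrary units. A probe's brightness depends on its sequence, so levels were never compared between genes. A log2 change is the difference between 2 group means of log2 scaled intensity, with its standard error from limma and n = 2 arrays in each group throughout. Called higher or lower means an adjusted p under 0.05 by limma with Benjamini-Hochberg adjustment over all 14773 genes tested.

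After 2 days, 28 of the 75 tested genes were higher in NPC2 than in EpiSC, 31 were lower and 16 were not called. The share called was 78.7%, against 69.0% of all genes tested in that comparison. By direction, 37.3% of the tested set was higher, against 28.3% of all genes, and 41.3% was lower, against 40.7% of all genes. This comparison depended on the scaling. With the authors' value table, 34 of the 75 genes were higher and 26 were lower. Lower calls then made up 43.3% of the set's calls, against 38.8% of all called genes. With the scaling used here they made up 52.5%, against 59.0%. Shares by direction given below for gene groups and lists are for the scaling used here. The median log2 change was -0.0429, against -0.0981 over all genes, so the genes moved in both directions around a middle near 0. The changes were often large, as 17 genes rose and 15 fell by 2-fold or more, 42.7% of the tested set against 19.9% of all genes. These counts use fitted changes, also for genes not above background in 1 of the groups. They include Col24a1, whose rise is bounded only at 1.88-fold or more.

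After 1 day, 26 of the 75 genes were higher in NPC1 than in EpiSC, 27 were lower and 22 were not called. The share called was 70.7%, against 50.3% of all genes. In this comparison 21.3% of all genes were higher and 29.0% were lower, against 34.7% and 36.0% of the tested set. The median log2 change of the set was 0.0369, against -0.0541 over all genes. Between the 2 days, 25 genes were higher in NPC2 than in NPC1, 25 were lower and 25 were not called, a share called of 66.7% against 47.5% of all genes, of which 20.8% were higher and 26.6% were lower. The comparisons share arrays in pairs, so their calls are not independent of each other. The split of calls over all genes depended on the scaling: of all called genes, 37.9% were lower in NPC1 than in EpiSC with the authors' value table, against 57.7% here, 38.8% were lower in NPC2 than in EpiSC, against 59.0%, and 41.0% were lower in NPC2 than in NPC1, against 56.1%, and 71.0% were lower in NPC1 than in EpiSC with arrays centred on their medians.

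**Figure D1:**
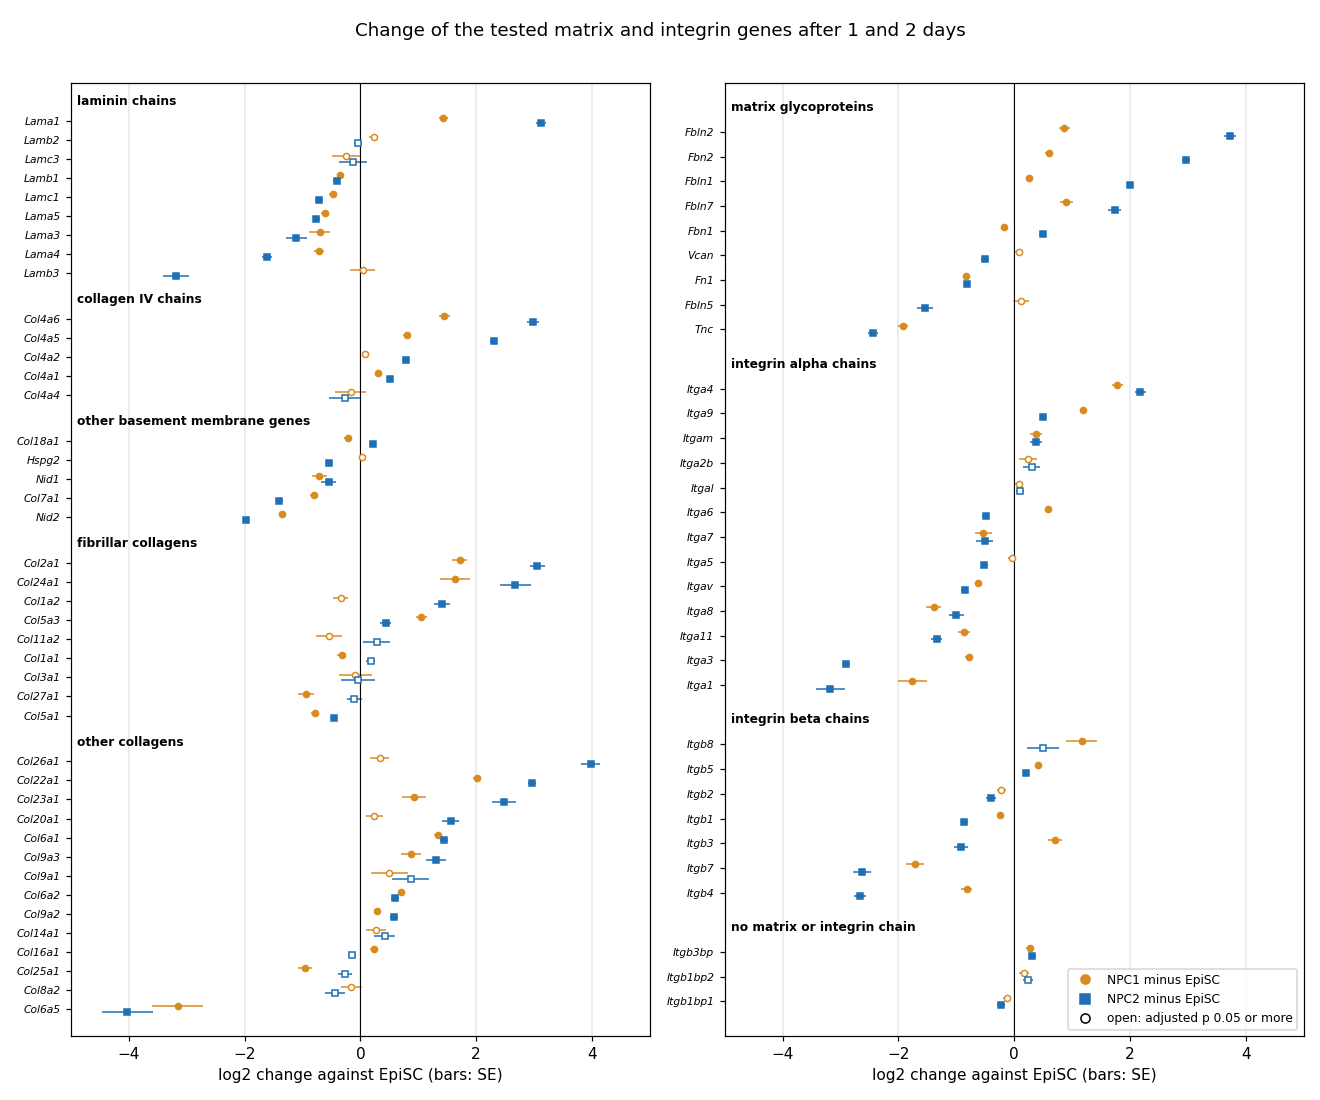
Log2 change of 74 tested genes in NPC1 (orange circles) and NPC2 (blue squares) against EpiSC, grouped by role, with bars for the standard error and open symbols where the adjusted p was 0.05 or more. After 2 days, 6 of the plotted laminin chain genes have filled squares that lie left of 0 with Lama1 at 3.12, and 4 of 5 collagen IV genes lie right of 0. Col6a5, Tnc, Col24a1, Col9a3 and Col26a1 were not above background in at least 1 group, so their plotted changes are fitted values and no bounds.

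Among the laminin chains, 7 of 10 tested genes were lower in NPC2 than in EpiSC and 1 was higher. Over all genes tested, 40.7% were lower and 28.3% were higher in this comparison. Lama3 and Lamb3 encode chains of a laminin that in skin anchors epithelial cells through hemidesmosomes. Lamb3, the beta 3 chain, read 249 and 225 in NPC1, against 239.7 and 222 in EpiSC, and was down to 31.7 and 20.2 in NPC2. Its difference lay between the days, with a log2 change of 0.04 ± 0.22 for NPC1 against EpiSC (adjusted p = 0.901) and of -3.22 ± 0.22 for NPC2 against NPC1 (adjusted p = 0.000443). Lama3, the alpha 3 chain, read 163 and 115 in EpiSC, 91.7 and 78.3 in NPC1 and 64.6 and 62.4 in NPC2, a log2 change of -1.11 ± 0.18 over 2 days (adjusted p = 0.00406).

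A second Lama3 probe was well above background in EpiSC alone, at 31.4 and 45.0, and was not well above background at 6.71 and 5.92 in NPC1 or at 1.99 and 2.30 in NPC2. It fell at least 4.3-fold after 1 day and at least 4.32-fold after 2 days (adjusted p = 0.00192 and 0.000175 over all probes), so both Lama3 probes were called lower and differed in size.

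Lama1, the alpha 1 chain of the laminin of the early embryo's basement membranes, went the other way. It had 298 and 335 in EpiSC, 892 and 818 in NPC1 and 2723 and 2771 in NPC2. The 3 groups were apart, with a rise of 8.7-fold over 2 days (log2 change 3.12 ± 0.080, adjusted p = 1.4e-05) and of 2.7-fold on day 1 (1.43 ± 0.080). Lama4, an alpha chain best known from vessel walls, fell from day to day, with 164 and 161 in EpiSC, 107 and 91.5 in NPC1 and 51.2 and 54.4 in NPC2 (log2 change over 2 days -1.62 ± 0.086, adjusted p = 9.26e-05).

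Lama5 and the beta and gamma chains that most basement membrane laminins share changed less. Lama5, the alpha 5 chain, had 19014 and 18331 in EpiSC, 12147 and 12153 in NPC1 and 11619 and 10449 in NPC2, and most of its fall lay in the first day (-0.62 ± 0.066, then -0.14 ± 0.066, the second not called). Lamc1, the gamma 1 chain, had 8905 and 8719.8 in EpiSC, 6548 and 6177 in NPC1 and 5640 and 5046 in NPC2 (-0.72 ± 0.072 over 2 days, adjusted p = 0.00069). Its call between the days (-0.25, adjusted p = 0.039) ended under several alternatives, among them the omission of any one EpiSC, NPC1 or NPC2 B array. Lamb1, the beta 1 chain, was lower after 2 days (-0.41 ± 0.061, adjusted p = 0.00282), and its call ended with quantile normalization (adjusted p = 0.0956) and with the authors' value table (adjusted p = 0.0582). Without EpiSC B, its call after 1 day ended too (adjusted p = 0.0507). Lamb2, the beta 2 chain, was called in 1 comparison alone, lower in NPC2 than in NPC1 (-0.27 ± 0.073, adjusted p = 0.0346), and Lamc3 was called in none.

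**Figure D2:**
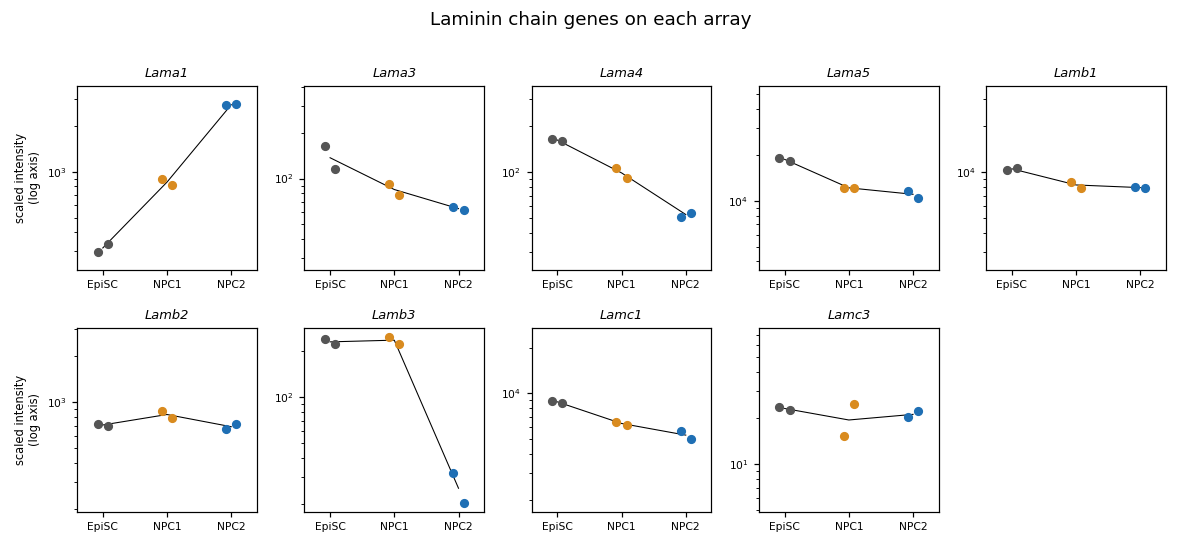
Scaled intensity of 9 tested laminin chain genes on each array, on a log axis, with 2 arrays per group and a line through the geometric means. Lama1 climbs on both days, Lama4 steps down on both days, and Lamb3 is low on the NPC2 arrays alone.

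Collagen IV, the network collagen of basement membranes, rose in all 4 of its called chains after 2 days, and none fell. By comparison, 28.3% of all genes were higher and 40.7% were lower. Among the collagen IV chains, Col4a5 (alpha 5) and Col4a6 (alpha 6) changed most. Col4a5 had 32.2 and 31.8 in EpiSC, 57.7 and 53.4 in NPC1 and 164 and 151 in NPC2, a rise of 4.92-fold (log2 change 2.30 ± 0.067, adjusted p = 1.81e-05). Col4a6 had 45.1 and 45.5 in EpiSC, 136 and 112 in NPC1 and 350.4 and 365 in NPC2, a rise of 7.9-fold (2.98 ± 0.10, adjusted p = 2.59e-05). In both genes each day's arrays lay above those of the day before. A second Col4a6 probe did not move with the first. It read 60.8 and 60.9 in EpiSC, 49.3 and 51.2 in NPC1 and 55.0 and 60.7 in NPC2, and was called lower after 1 day (-0.28 ± 0.070, adjusted p = 0.0397 over all probes), where the first probe was higher (1.45). After 2 days it was not called (-0.075, adjusted p = 0.406). The rise of Col4a6 thus rests on 1 of its 2 probes, and with the mean of both it was 1.45 over 2 days (adjusted p = 5.91e-05) and 0.586 on day 1 (adjusted p = 0.00218).

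Col4a1 and Col4a2, whose products form the most common collagen IV molecule, rose by less. Col4a1 had 670 and 661 in EpiSC, 807 and 828 in NPC1 and 936 and 979 in NPC2 (0.52 ± 0.048 over 2 days, adjusted p = 0.000516). Its call between the days (0.23, adjusted p = 0.0153) ended without NPC1 A (adjusted p = 0.0557) or NPC2 B (adjusted p = 0.0778). Col4a2 had 444 and 459 in EpiSC, 473 and 481 in NPC1 and 798 and 754 in NPC2 (0.78 ± 0.052, adjusted p = 0.00018). The day 1 change of Col4a2 (0.08 ± 0.052, adjusted p = 0.249) was not called here, although it was with the authors' value table (0.204, adjusted p = 0.0237). Col4a4 was dim and not called in any comparison, and Col4a3 was not tested.

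The collagen IV genes lie in head-to-head pairs, Col4a1 beside Col4a2 on chromosome 8 and Col4a5 beside Col4a6 on the X chromosome. In the RefSeq annotation of GRCm38.p6 the start sites of Col4a5 and Col4a6 are 1343 bases apart. The annotated 5′ ends of Col4a1 and Col4a2 overlap by 22 bases. The 250 bases before the start sites of Col4a5 and Col4a6 are shown because both genes of this pair were called higher on both days. Each is written 5′ to 3′ on its own gene's strand, Col4a5 at chrX:141475169-141475418 (plus strand) and Col4a6 at chrX:141474077-141474326 (minus strand). Capitals mark the motifs found in a search of both strands. The first motif searched was the GC box, whose letters are GGGCGG. The CCAAT box was the second motif, and its name gives its letters. The third motif, which neither window holds, was the TATA box with the letters TATAAA.
Col4a5: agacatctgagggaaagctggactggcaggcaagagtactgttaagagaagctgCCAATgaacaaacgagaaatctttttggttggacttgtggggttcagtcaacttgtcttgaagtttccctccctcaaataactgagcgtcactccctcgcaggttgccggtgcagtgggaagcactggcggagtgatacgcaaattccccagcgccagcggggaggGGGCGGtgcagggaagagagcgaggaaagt
Col4a6: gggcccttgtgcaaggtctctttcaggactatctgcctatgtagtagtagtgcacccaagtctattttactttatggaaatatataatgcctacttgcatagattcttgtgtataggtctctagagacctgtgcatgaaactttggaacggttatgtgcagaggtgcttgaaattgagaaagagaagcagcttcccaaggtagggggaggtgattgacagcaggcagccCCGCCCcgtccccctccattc
Each window holds 1 GC box, which in that of Col4a6 lies on the opposite strand and close to the start site, and the window of Col4a5 also holds 1 CCAAT box. A GC box was present in 32.7% of 32851 such windows in RefSeq, a CCAAT box in 33.8% and a TATA box in 12.4%. Of 77 windows of 68 matched genes of the set, 40 held a GC box (51.9%), 21 a CCAAT box (27.3%) and 7 a TATA box (9.09%). A match is a stretch of letters, not a measured binding site.

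Of the other basement membrane genes, 4 of 5 tested were lower after 2 days and 1 was higher. Among all genes, 40.7% were lower and 28.3% were higher. Nid2, which encodes nidogen 2, a linker of laminin and collagen IV, had 4493 and 4584 in EpiSC, 1782 and 1754 in NPC1 and 1184 and 1118 in NPC2. It fell 3.94-fold (log2 change -1.98 ± 0.050, adjusted p = 1.4e-05), most of it on day 1 (-1.36 ± 0.050). Nid1 (nidogen 1) was lower by a log2 change of -0.71 ± 0.13 after 1 day and of -0.55 ± 0.13 after 2 days, and the second call ended without EpiSC B (adjusted p = 0.0547), without NPC2 B (adjusted p = 0.0684) or with the authors' value table (adjusted p = 0.0795). Both nidogen genes were therefore lower than in EpiSC, Nid2 by more.

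Hspg2, which encodes the heparan sulfate proteoglycan perlecan, was not called after 1 day, at 4112 and 4015 in NPC1 against 3908 and 4027 in EpiSC, and was lower in NPC2, at 2783 and 2634 (-0.55 ± 0.051 against EpiSC, adjusted p = 0.000567). Col7a1, the anchoring fibril collagen beneath skin epithelium, fell on both days, with 3632 and 3789 in EpiSC, 2136 and 2139.9 in NPC1 and 1336 and 1484 in NPC2 (-1.40 ± 0.067, adjusted p = 6.76e-05). Col18a1, the collagen whose fragment is endostatin, was slightly lower after 1 day (-0.22 ± 0.055, adjusted p = 0.0264) and slightly higher after 2 days (0.21 ± 0.055, adjusted p = 0.0228). Both calls ended without EpiSC A or without EpiSC B, and under other alternatives, while its rise between the days (0.43 ± 0.055, adjusted p = 0.00329) kept its call in all 14 alternatives.

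Fibrillar collagens form the rope-like fibres of loose tissue, cartilage and bone. Of 9 tested genes, 4 were higher in NPC2 than in EpiSC, 1 was lower and 4 were not called. The share called was 55.6%, under the 69.0% of all genes. By direction, 44.4% were higher, against 28.3% of all genes, and 11.1% were lower, against 40.7%. Col2a1, the main fibre collagen of cartilage, which is also made by the notochord and early neural tissue, had 443 and 467 in EpiSC, 1698 and 1312 in NPC1 and 3656 and 3924 in NPC2. The rise was 8.33-fold (3.06 ± 0.13, adjusted p = 5.09e-05), and each day's arrays lay above those before. Col24a1 was not well above background in EpiSC (3.04 and 2.51), was so on 1 of 2 NPC1 arrays (6.64 and 11.2) and was bright on both NPC2 arrays (17.0 and 18.4). It was at least 1.88-fold higher in NPC2 than in EpiSC (adjusted p = 0.000662).

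The chains of collagen I did not rise together by the test. Col1a2 had 757 and 751 in EpiSC, 669 and 529 in NPC1 and 2112 and 1902 in NPC2, a rise of 2.66-fold over 2 days (1.41 ± 0.13, adjusted p = 0.000482). Col1a1 had 820.2 and 901 in EpiSC, 721 and 659 in NPC1 and 1008 and 944 in NPC2. Its arrays in NPC2 lay above both EpiSC arrays, yet the difference was not called (0.18 ± 0.079, adjusted p = 0.0934), although it was with quantile normalization (0.279, adjusted p = 0.0284) and with the authors' value table (0.406, adjusted p = 0.00904). Its fall on day 1 (-0.32, adjusted p = 0.0251) ended without EpiSC B (adjusted p = 0.113) or NPC1 B (adjusted p = 0.0907), with the authors' value table (-0.195, adjusted p = 0.11) and with no filter on dim probes (adjusted p = 0.0555). The day 1 difference of Col1a2 (-0.34 ± 0.13, adjusted p = 0.0765) was not called, but was called lower with median centring (-0.442, adjusted p = 0.025), with normexp background correction (-0.292, adjusted p = 0.00835) and without NPC1 A (-0.512, adjusted p = 0.0187). Between the days both chains rose, Col1a2 by 1.75 ± 0.13 and Col1a1 by 0.50 ± 0.079 on the log2 scale. Col3a1 stayed between 29.0 and 45.7 on all 6 arrays and was called in no comparison.

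Col5a1 and Col5a3 encode chains of collagen V, which regulates fibre width. Col5a1 dipped on day 1, with 1099 and 1182 in EpiSC, 665 and 649 in NPC1 and 813 and 838 in NPC2 (-0.79 ± 0.056, then 0.33 ± 0.056). Col5a3 peaked on day 1, with 72.1 and 83.0 in EpiSC, 170.4 and 151 in NPC1 and 103 and 107 in NPC2 (1.05 ± 0.097, then -0.61 ± 0.097). All of these steps were called, so the 2 chains moved in opposite directions on each day. Col27a1 dipped on day 1 (-0.94 ± 0.13) and was back at 56.7 and 55.6 in NPC2, against 61.7 and 59.5 in EpiSC (adjusted p = 0.489). Col11a2 was called between the days alone (0.82 ± 0.23, adjusted p = 0.0393).

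Among 14 other tested collagens, 8 were higher after 2 days, 1 was lower and 5 were not called. The higher share was 57.1%, against 28.3% of all genes, and the lower share was 7.14%, against 40.7%. Col26a1, a little studied collagen gene, was not well above background in EpiSC (9.63 and 10.5), stayed at 14.7 and 11.0 in NPC1 and reached 146 and 171 in NPC2. It was at least 15.7-fold higher in NPC2 than in EpiSC (adjusted p = 4.33e-05), and its rise lay between the days (3.64 ± 0.16). Col22a1, which in muscle marks the junction with tendon, rose on both days, with 56.4 and 61.9 in EpiSC, 245 and 234 in NPC1 and 450 and 477 in NPC2 (2.97 ± 0.069, adjusted p = 1.22e-05). Col23a1, a transmembrane collagen, had 25.0 and 17.8 in EpiSC, 46.0 and 34.9 in NPC1 and 114 and 122 in NPC2 (2.48 ± 0.21, adjusted p = 0.00039). After 2 days all 3 of its probes were called higher, and after 1 day 1 of them was.

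Col6a1 and Col6a2, neighbours on chromosome 10 that encode 2 of the chains of beaded-filament collagen VI, rose on day 1 and were not called between the days. Col6a1 had 109 and 107 in EpiSC, 286 and 264 in NPC1 and 305 and 281 in NPC2 (1.34 ± 0.068 on day 1, then 0.09 ± 0.068, not called). Col6a2 had 44.6 and 48.1 in EpiSC, 78.4 and 73.1 in NPC1 and 68.0 and 72.6 in NPC2 (0.71 ± 0.069 on day 1, then -0.11 ± 0.069, not called). Col6a5, another collagen VI chain, was the exception. It had 33.3 and 40.4 in EpiSC and was not well above background at 2.58 and 6.53 in NPC1 or 2.13 and 2.38 in NPC2, at least 4.19-fold and at least 4.21-fold lower (adjusted p = 0.00439 and 0.000994).

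The 3 chains of collagen IX, a collagen that coats cartilage fibres, were all tested. Col9a2 rose (0.58 ± 0.061 over 2 days, adjusted p = 0.000827) and Col9a3 was at least 2.48-fold higher after 2 days (adjusted p = 0.00176). Col9a1 was not called on its brighter probe (0.87 ± 0.32, adjusted p = 0.0587), but a second probe, with 31.8 and 36.7 in NPC2 and not well above background at 3.12 and 2.29 in EpiSC, was at least 3.64-fold higher (adjusted p = 0.000307 over all probes). Col20a1 was higher after 2 days (1.56 ± 0.15), with 1 of 2 EpiSC arrays above background. Col25a1, a transmembrane collagen of neurons, dipped on day 1 (-0.95 ± 0.12). Col16a1, which lies near cartilage and skin fibres, rose on day 1 (0.23 ± 0.068, adjusted p = 0.041) and then fell (-0.37 ± 0.068, adjusted p = 0.0102). Adjusted over all probes, its rise on day 1 was not called (adjusted p = 0.0713). A second Col16a1 probe was called in no comparison (0.20 on day 1, then -0.36). Col14a1 and Col8a2 were called in no comparison.

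All 9 tested genes of the looser matrix, the fibulins, fibrillins, fibronectin, tenascin C and versican, were called after 2 days, 5 higher and 4 lower. Of all genes, 69.0% were called. The lower share was 44.4%, near the 40.7% of all genes, and the higher share was 55.6%, against 28.3%. Fbln2 (fibulin 2) had 188 and 162 in EpiSC, 319 and 318 in NPC1 and 2185 and 2468 in NPC2, a rise of 13.3-fold (3.73 ± 0.097, adjusted p = 1.4e-05). Fbn2 (fibrillin 2, the fibrillin of embryonic microfibrils) had 128 and 143 in EpiSC, 209.9 and 201 in NPC1 and 1059 and 1055 in NPC2, a rise of 7.81-fold (2.97 ± 0.071, adjusted p = 1.29e-05). Fbln1 (fibulin 1) had 269.5 and 285 in EpiSC, 332 and 328 in NPC1 and 1116 and 1101 in NPC2, a rise of 4-fold (2.00 ± 0.049, adjusted p = 1.31e-05). In these 3 genes most of the rise fell between the days, with steps of 2.87, 2.36 and 1.75 on the log2 scale after steps of 0.87, 0.60 and 0.25. The first step of Fbln1 lost its call without EpiSC A (adjusted p = 0.0689) and with arrays centred on their medians (adjusted p = 0.0586). Fbln7 rose on both days (1.74 ± 0.11 over 2 days).

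Fbn1 (fibrillin 1, the fibrillin that lasts in adult tissue) was higher after 2 days, at 154 and 161 in NPC2 against 112 and 113 in EpiSC (0.49 ± 0.052, adjusted p = 0.000868). Its small fall on day 1 (-0.18, adjusted p = 0.0413) ended under 10 of 14 alternatives, among them the omission of any single array. Fbln5 (fibulin 5, an organiser of elastic fibres) moved against the other fibulins, at 19.0 and 15.7 in NPC2 against 55.8 and 45.3 in EpiSC (-1.54 ± 0.14, adjusted p = 0.000567), with no call on day 1.

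Fn1 encodes fibronectin, the main ligand of alpha 5 beta 1 integrin. It had 15480.4 and 15937 in EpiSC, 8886 and 8606 in NPC1 and 8872 and 9051 in NPC2, and so stepped down on day 1 (-0.84 ± 0.047, adjusted p = 0.000352) and was not called between the days (0.04 ± 0.047, adjusted p = 0.57). Tnc, which encodes tenascin C, had 32.7 and 37.4 in EpiSC and was not well above background at 9.62 and 8.81 in NPC1 or 6.65 and 6.21 in NPC2. It was at least 3.8-fold lower after 1 day and at least 4.02-fold lower after 2 days (adjusted p = 0.000239 and 3.33e-05). With normexp background correction the falls were smaller than these bounds, at log2 changes of -0.427 and -0.503. Vcan, the large proteoglycan versican, had 879 and 923 in EpiSC, 915 and 1005 in NPC1 and 625 and 646 in NPC2, and was lower after 2 days (-0.50 ± 0.066, adjusted p = 0.00179). Its day 1 difference was not called on this probe but was called higher with the mean of its 3 probes (0.385, adjusted p = 0.00808), with the authors' value table (0.213, adjusted p = 0.0343) and on its dimmest probe (0.98, adjusted p = 0.0195 over all probes). Of the 3 Vcan probes, 2 were lower after 2 days, and the dimmest read 21.6 and 15.5 in NPC2 against 13.5 and 11.5 in EpiSC, a difference that was not called (0.56, adjusted p = 0.0617). With the mean of the 3 probes the fall was -0.172 and not called (adjusted p = 0.0654).

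**Figure D3:**
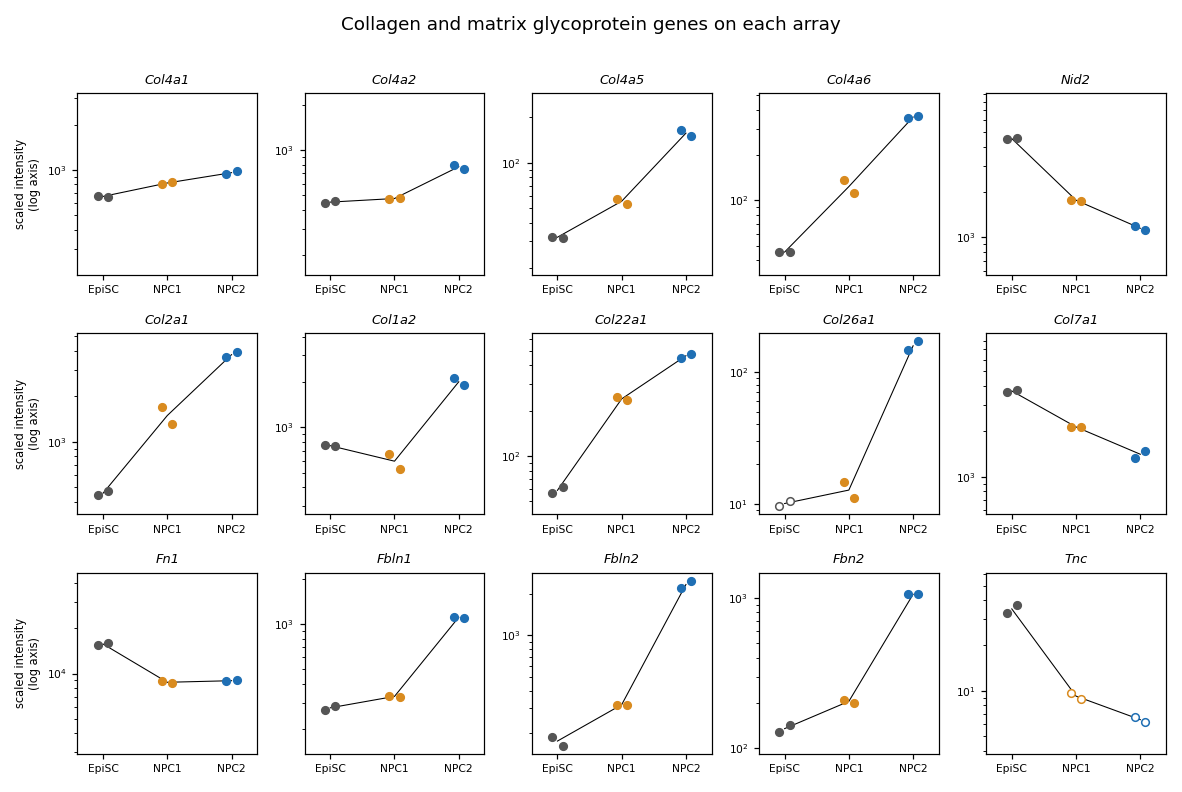
Scaled intensity of 15 collagen and matrix glycoprotein genes on each array, on log axes, with open points where neither array of a group was well above background and a line through the geometric means. The fibulin 1, fibulin 2 and fibrillin 2 genes and Col26a1 are steepest between NPC1 and NPC2, Fn1 and Nid2 are steepest between EpiSC and NPC1, and Col4a5, Col4a6, Col2a1 and Col22a1 climb on both days.

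Integrin alpha chains decide which ligand a receptor binds. Of 13 tested, 8 were lower in NPC2 than in EpiSC, 3 were higher and 2 were not called. The lower share was 61.5%, against 40.7% of all genes, and the higher share was 23.1%, against 28.3%. Itga3, whose product pairs with beta 1 and binds laminins with an alpha 3 or alpha 5 chain, had 1679.6 and 1817 in EpiSC, 1027 and 1011 in NPC1 and 244 and 225 in NPC2. It fell 7.46-fold (-2.90 ± 0.066, adjusted p = 1.19e-05), more between the days (-2.12 ± 0.066) than on day 1 (-0.78 ± 0.066). Itga1, a receptor chain for collagen and laminin, had 110.2 and 118 in EpiSC, 37.0 and 30.6 in NPC1 and 16.1 and 9.79 in NPC2 (-3.18 ± 0.25, adjusted p = 0.000314). Both chains fell on each day without overlap of their arrays, although the second Itga1 probe was not called between the days (-0.41).

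Itga6, which pairs with beta 1 or beta 4 to bind laminin, first rose and then fell. It had 9812 and 10526 in EpiSC, 15783 and 14866 in NPC1 and 7179 and 7337 in NPC2, and all 3 differences were called (0.59, -1.08 and, over 2 days, -0.49, each ± 0.060). Itga5, the fibronectin receptor chain, was not called on day 1 and was lower after 2 days, at 168 and 158 in NPC2 against 242 and 225 in EpiSC (-0.52 ± 0.060, adjusted p = 0.00114). Itgav, which binds vitronectin, fibronectin and latent TGF-beta, was lower after both days, at 98 and 89.7 in NPC2 and 110.3 and 109.5 in NPC1, against 166 and 172 in EpiSC (-0.85 ± 0.060 over 2 days, adjusted p = 0.000222). Its step between the days (-0.23, adjusted p = 0.031) ended under 10 of 14 alternatives, among them the omission of each array other than NPC2 A. Itga8, a receptor chain for fibronectin and nephronectin, and Itga11, one for fibrillar collagen, were also lower after 2 days (-1.0 ± 0.13 and -1.34 ± 0.10), as was Itga7, a laminin receptor chain of muscle (-0.51 ± 0.15, adjusted p = 0.0338).

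Itga4 and Itga9, the related alpha chains that bind fibronectin's spliced segment, tenascin C or VCAM1, rose. Itga4 had 20.9 and 24.4 in EpiSC, 75.1 and 80.3 in NPC1 and 98.5 and 107 in NPC2, a rise of 4.53-fold, most of it on day 1 (1.78 ± 0.096, then 0.40 ± 0.096). A second Itga4 probe was at 82.4 on EpiSC B and between 1.94 and 3.38 on the other 5 arrays, and did not enter the test. Itga9 peaked on day 1, with 248 and 230.2 in EpiSC, 539 and 549 in NPC1 and 332 and 346 in NPC2 (1.19 ± 0.057, then -0.68 ± 0.057). It was still higher in NPC2 than in EpiSC (0.50 ± 0.057, adjusted p = 0.0011).

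The chains best known from blood cells gave little. Itga2b and Itgal were called in no comparison. Itgam, a chain of myeloid cells, was called higher after 2 days (0.38 ± 0.10, adjusted p = 0.0221) on a probe at 8309 and 7697 in NPC2 against 6383 and 5890 in EpiSC. Its other 2 probes lay between 15.5 and 42.3 on all arrays, and 1 of them was lower (-0.55 ± 0.14, adjusted p = 0.0276 over all probes). The blood marker Ptprc was called in no comparison, and Spi1 was not well above background on any array. The part of blood cells in the Itgam value was not tested. Of the 9 tested endothelial and blood markers, which include these 3 integrin genes, 1 was higher (Itgam) and 3 were lower after 2 days. These shares, 11.1% and 33.3%, were under the 28.3% and 40.7% of all genes.

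Beta chains are shared between many alpha chains. Of 7 tested, 5 were lower in NPC2 than in EpiSC, 1 was higher and 1 was not called. The lower share was 71.4%, against 40.7% of all genes, and the higher share was 14.3%, against 28.3%. Itgb1, the beta 1 chain that most matrix-binding alpha chains pair with, had 2151 and 2236 in EpiSC, 1869 and 1849 in NPC1 and 1165 and 1254 in NPC2 (-0.86 ± 0.056, adjusted p = 0.000177). Its day 1 fall (-0.24, adjusted p = 0.022) ended without any 1 of the EpiSC or NPC1 arrays and was absent from its second probe (-0.0096). Itgb4, the partner of alpha 6 in hemidesmosomes, had 312 and 301 in EpiSC, 185 and 164 in NPC1 and 52.7 and 45.0 in NPC2, a fall of 6.3-fold (-2.66 ± 0.10, adjusted p = 3.76e-05). Itgb7, known from lymphocytes, had 230.3 and 258 in EpiSC, 65.5 and 84.5 in NPC1 and 42.8 and 36.0 in NPC2 (-2.63 ± 0.16, adjusted p = 0.00013).

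Itgb3 and Itgb5 encode partners of the alpha v chain. Itgb3 peaked on day 1, with 149.9 and 159.8 in EpiSC, 283 and 223 in NPC1 and 80.5 and 82.8 in NPC2 (0.70 ± 0.12, then -1.62 ± 0.12). Itgb5 had 7691 and 7546 in EpiSC, 9996 and 10451 in NPC1 and 8542 and 8947 in NPC2. Its rise on day 1 was called (0.42 ± 0.051, adjusted p = 0.00285), while the smaller differences over 2 days (0.20, adjusted p = 0.0204) and between the days (-0.23, adjusted p = 0.0201) ended without EpiSC A, EpiSC B or NPC2 B for the first and without NPC1 B, NPC2 A or NPC2 B for the second. Itgb8 was higher on day 1 (1.17 ± 0.27, adjusted p = 0.02), with 1 of 2 EpiSC arrays above background. Itgb2, the leukocyte beta chain, was lower after 2 days (-0.40 ± 0.080).

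**Figure D4:**
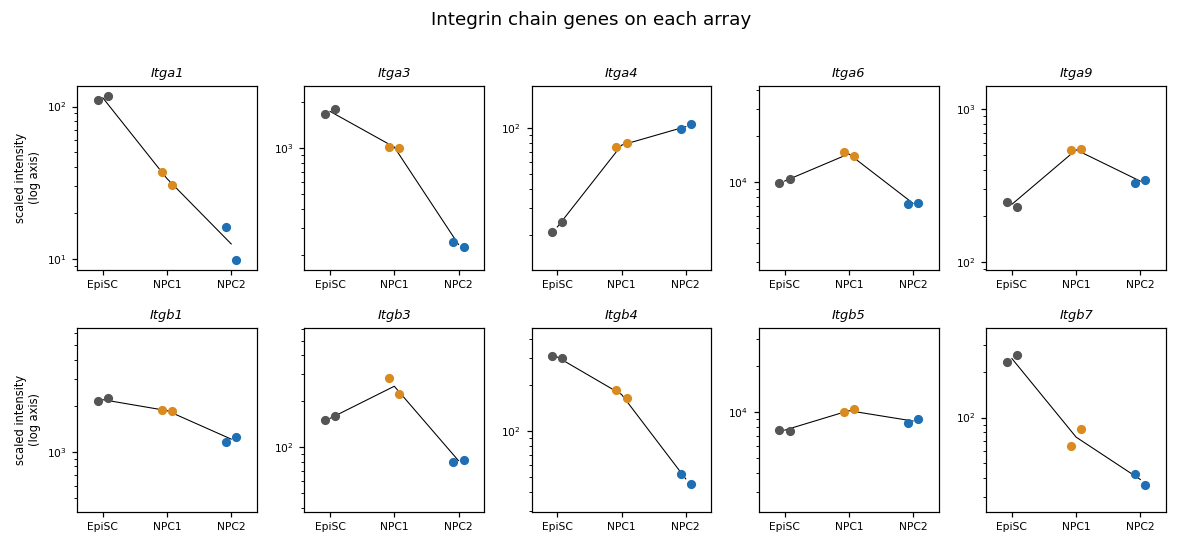
Scaled intensity of 10 integrin chain genes on each array, on log axes, with a line through the geometric means. Itga1, Itga3, Itgb4 and Itgb7 step down on both days, Itga6, Itga9, Itgb3 and Itgb5 are highest in NPC1, and Itga4 rises.

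In a grouping made after the values were seen, Lama3, Lamb3 and 4 genes of laminin receptors and anchoring fibrils were lower in NPC2 than in EpiSC. The log2 changes were -1.11 (Lama3), -3.19 (Lamb3), -2.90 (Itga3), -0.49 (Itga6), -2.66 (Itgb4) and -1.40 (Col7a1). The timing differed between them, since on day 1 Itga6 was higher (0.59), Lamb3 was not called and the other 4 were lower. The chains of laminin-111, in the same comparison, gave 3.12 (Lama1), -0.41 (Lamb1) and -0.72 (Lamc1).

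The 3 genes that the symbol's start took in without being matrix or integrin genes changed by less than 2-fold on their tested probes. Itgb3bp, which encodes a centromere protein, was higher after 2 days (0.31 ± 0.060), and Itgb1bp1, which encodes a cytoplasmic binder of the beta 1 chain, was lower on its brightest probe (-0.22 ± 0.068, adjusted p = 0.0371 over genes). Its probes disagreed, since over all probes that one was not called (adjusted p = 0.0599) and the second Itgb1bp1 probe was called higher (0.63 ± 0.13, adjusted p = 0.0135). Itgb1bp2 was called in no comparison.

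Probes of 1 gene did not always move alike. Of 19 genes with several probes above background, 1 had opposite calls in NPC1 against EpiSC (Col4a6), 1 in NPC2 against EpiSC (Itgam) and 0 in NPC2 against NPC1, where 8 genes were called by some of their probes and not by others. That was so for 7 genes after 1 day and for 5 after 2 days. Transcript forms were not measured apart, and the probe sequences were not used here.

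**Figure D5:**
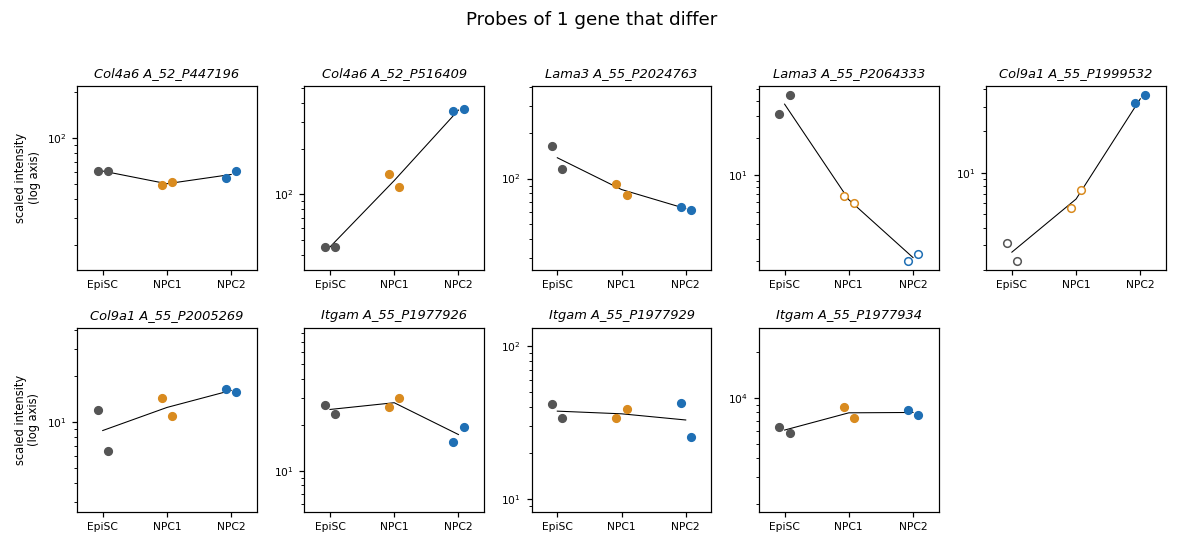
Scaled intensity of the probes of Col4a6, Lama3, Col9a1 and Itgam on each array, on log axes, 1 panel per probe, with open points where neither array of a group was well above background. The first Col4a6 probe lies between 49.3 and 60.9 on all arrays while the second rises, 1 of the Lama3 probes falls below background, and the last Itgam probe is higher in NPC1 and NPC2 than in EpiSC.

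The 18 genes that were not tested read at most 10.9 on any array. They were Col4a3, Lama2, Col5a2, Col11a1, Col6a4, Col6a6, Col8a1, Col10a1, Col13a1, Col15a1, Col17a1, Col19a1, Col28a1, Itga2, Itgad, Itgax, Itgb2l and Itgb6. Several of them sit beside tested genes on their chromosomes, such as Itga2 beside Itga1 on chromosome 13, and of 12 adjacent pairs within the set both genes were tested in 4.

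Related genes outside the set were counted from lists, to be read against the 28.3% of all genes that were higher and the 40.7% that were lower in NPC2. Of 22 tested genes that process or crosslink collagen, 8 were higher and 6 were lower in NPC2 than in EpiSC (36.4% and 27.3%), with a median log2 change of 0.0117. Pcolce, which encodes an enhancer of procollagen cleavage, fell (-2.77, adjusted p = 1.12e-05), as did Pcolce2 (-1.60) and the crosslinking enzyme gene Loxl4 (-3.08), while Loxl3 rose (1.40). Of 33 other matrix glycoprotein and proteoglycan genes, 17 were higher and 10 were lower (51.5% and 30.3%, median 0.218). Ntn1, the gene of the axon guidance cue netrin 1, rose (4.35, adjusted p = 2.24e-05), Frem1 rose (3.92), Spp1, the gene of the integrin ligand osteopontin, fell (-4.22, adjusted p = 3.28e-05), and Vtn, the gene of vitronectin, was at least 3.52-fold higher.

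Of 22 tested genes that couple integrins to actin, 12 were lower in NPC2 than in EpiSC and 4 were higher (54.5% and 18.2%, against 40.7% and 28.3% of all genes, median -0.274 against -0.0981), with Zyx (zyxin, -1.27), Vasp (-1.13), Tln1 (talin 1, -1.06) and Actn4 (alpha-actinin 4, -1.04) at the front. After 1 day 6 were lower (27.3%, near the 29.0% of all genes) and 4 were higher (18.2%, against 21.3%). Among 15 tested matrix receptors other than integrins, 6 were higher, among them Gpc6 (glypican 6, 2.03) and Sdc3 (syndecan 3, 1.61). Another 6 were lower, among them Bcam, a receptor of laminin alpha 5 (-1.34). Both shares were 40.0%, the lower one near that of all genes. Of 22 proteases and inhibitors, 9 were higher (40.9%), among them Timp2 (1.64) and Mmp2 (1.61). In the other direction, 8 were lower (36.4%), among them Plau, the gene of urokinase, which was at least 2.51-fold lower.

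Markers of other cells that make much matrix were counted too. Of 12 tested fibroblast and feeder markers, which include Fbln5 of the set, 6 were higher and 5 were lower after 2 days. Pdgfra was at least 11.5-fold higher in NPC2 (adjusted p = 0.000132), Prrx1 was at least 4.99-fold higher, Postn was at least 1.88-fold higher and Acta2 was higher (2.59), while S100a4 (-3.22), Twist2 (-1.49) and Dcn (-0.56) were lower. Fap, Dpt and Lum were not above background on both arrays of any group. After 1 day 3 were higher (25.0%, against 21.3% of all genes) and 2 were lower (16.7%, against 29.0%). The list's summed scaled intensity was 21162 to 22760.5 in EpiSC, 45565 to 46143 in NPC1 and 21834 to 22168 in NPC2, most of it from Tagln (19091 and 20547 in EpiSC, 42101 and 41529.8 in NPC1, 17768 and 17662 in NPC2). Without Tagln, the gene of the actin-binding protein transgelin, the sum was 2072 to 2213 in EpiSC, 4035 to 4042 in NPC1 and 4173 to 4401 in NPC2. The part of these markers in the rises of Col1a2, Col6a1, Fbln1, Fbln2 and Fbn2 was not tested. Of 10 tested extraembryonic endoderm markers, 8 were lower and 2 higher in NPC2 (Dab2, 1.12, and Pdgfra), with Foxq1 at least 12.7-fold lower, Sox17 at -2.88 and Gata6 at -1.83. After 1 day 6 of the 10 were lower and 1 was higher (median -1.14). Their summed intensities were 105945 to 111939 in EpiSC, 104547 to 105089 in NPC1 and 74519 to 77159 in NPC2, nearly all of it from Sparc (105028 and 111015 in EpiSC, 104073 and 104648 in NPC1, 76532 and 73926 in NPC2). Without Sparc, the gene of a matrix glycoprotein, the sum was 917 to 925 in EpiSC, 441 to 475 in NPC1 and 593 to 626 in NPC2. Their part in the falls of the laminin chain, Nid2 and Fn1 genes was not tested. Primitive streak and mesoderm markers were lower after 2 days in 7 of 8 genes (87.5%, against 40.7% of all genes). They were higher in 1, Tbx6 (0.50), a share of 12.5% against 28.3%.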

How the data were processed

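Per the labels' protocols, 100 ng of total RNA from each of 6 mouse cultures (EpiSC, NPC1 and NPC2, 2 each) was labelled with Cy3, and Agilent 1-colour arrays (design 028005) read it. Per the file headers, Agilent Feature Extraction 10.10.1.1 (protocol GE1_1010_Sep10) gave each spot a processed intensity, background-subtracted, with no step between arrays. In the authors' deposited value table this intensity is multiplied by 1 constant per array, whose origin the sources used here do not give; the scale is linear and uncentred, with medians of 52.5 and 51.3 (EpiSC), 61.8 and 59.6 (NPC1) and 65.3 and 64.3 (NPC2). Each array holds 59305 non-control spots, 58.15% to 61.06% of them well above background and 0 saturated, with 128 to 171 outlier marks.

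Control and outlier spots were left out, spots of a probe were averaged, and names came from RefSeq (GRCm38.p6) through the probe's accession: of 28372 probes with one, 26744 matched 1 symbol and 0 several. From each log2 intensity the array's 75th percentile was subtracted. Probes had to stand well above background on each array of 1 or more groups, and the brightest such probe by mean stood for its gene. The test was limma's (version 3.58.1, R 4.3.3; two-sided lmFit and eBayes, 1 fit of 6 arrays, 3 residual and 1.88 prior degrees of freedom) and Benjamini-Hochberg adjustment over 14773 genes; statements on single probes adjust over all probes tested. On simulated data with 100 genes changed 2-fold and 100 changed 4-fold, NPC2 against EpiSC, 77 and 90 were recovered. The other genes were left unchanged there, whereas 69.0% of all genes were called in the data, so these rates do not carry over. Bounds ("at least N-fold") set the bright group's mean against, on each dim array, the higher of the gene's signal and the lowest signal well above background. They hold for the scanner's processed signal with the main scaling and are no limits under normexp background correction, which gave smaller changes. Deviations of same-letter samples from their group means correlated at 0.0082, 0.00626 and -0.0449 across genes. With 2 arrays per group, this cannot show whether the letters mark samples handled as pairs.

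The members and all lists were chosen with earlier results of these data known. Any member could be named; values were set for 28 always named, the 8 largest rises and falls of each comparison and the 4 largest bounds each way, and for lists the 4 called genes with the largest change. Other members and list genes named were chosen after their values were seen. The values of 2 genes that the rule took are not reported here.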

Additional observations from a re-analysis of the deposited data

How the results depend on the processing

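The named genes gave 120 values, 107 of them called, and 14 alternatives were run: quantile normalization, centring on the median, the authors' value table, normexp background correction, no filter on dim probes, a filter on all 6 arrays, the mean of a gene's probes, the replicate block and the omission of each array. Of 1670 values, 1568 kept direction and side of the threshold, 77 lost the call, 8 gained it and 17 changed sign. None of the 107 called values changed sign, and 17 lost the call under some alternative. On the log2 scale, the value table and median centring differ from the main scaling by 1 constant per array. Within a comparison each of them therefore moves every gene's log2 change by the same amount. The cause of the shifts under the other alternatives was not tested. Of the called values, 37 were over 1.5 times smaller with normexp, 14 with the value table, 8 with quantile normalization, 7 with the mean of the probes and 4 with median centring, and 2, 2 and 1 were over 1.5 times larger with quantile normalization, the value table and median centring. With normexp, NPC2 against EpiSC gave 1.43 for Col26a1, 1.87 for Col4a6, 1.15 for Col4a5, -1.76 for Lamb3, -1.01 for Lama4, -1.37 for Itga1, -1.67 for Itgb4 and -1.61 for Itgb7. It also gave 0.267 for Col24a1, 0.25 for Col9a3, -0.657 for Col6a5 and -0.503 for Tnc. These 4 values and that of Col26a1 were smaller than the genes' bounds. So were those of Col6a5 (-0.559) and Tnc (-0.427) in NPC1 against EpiSC. With the value table it gave -0.327 for Hspg2, -0.297 for Itga5, -0.262 for Itga6 and -0.281 for Vcan, all still called. With quantile normalization it gave -0.488 for Lama5 and -0.235 for Itga6, both still called.

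Values that changed sign were all uncalled. For NPC1 against EpiSC they were Col3a1 (0.0369 with the value table, -0.373 to 0.2 with 1 array left out, above 0 without EpiSC B or NPC1 B), Itga5 (0.0837 with the value table, -0.0908 to 0.0108 with 1 array left out, above 0 without EpiSC A) and, with arrays centred on their medians, Col4a2 (-0.0187), Hspg2 (-0.065) and Vcan (-0.01). For NPC2 against EpiSC it was Col3a1 (0.18 with the value table, -0.367 to 0.282 with 1 array left out, above 0 without EpiSC B or NPC2 A). For NPC2 against NPC1 they were Col3a1 (-0.0261 with normexp, -0.281 to 0.368 with 1 array left out, below 0 without NPC1 B or NPC2 B) and Lamb1 (0.0572 with quantile normalization, 0.0422 with the value table, -0.124 to 0.00891 with 1 array left out, above 0 without NPC1 A).

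The all-gene count for NPC1 against EpiSC was 7431, and 4880 (without EpiSC B) to 6719 with 1 array left out. The median log2 change of the tested set moved with the scaling. For NPC1 against EpiSC it was -0.0626 with median centring, 0.16 with the value table and -0.0868 with the filter on all 6 arrays, against 0.0369. For NPC2 against EpiSC it was -0.095 with quantile normalization, -0.126 with median centring, 0.18 with the value table, -0.103 without the filter, -0.136 with the filter on all 6 arrays and -0.096 to 0.0388 with 1 array left out, against -0.0429. For NPC2 against NPC1 the value table gave 0.123, against 0.0229. The value table shifts the median of all genes to 0.125 and median centring to -0.181 (NPC2 against EpiSC), against -0.0981. No alternative moved the share of lower calls within the set by over 10 percentage points, while that over all genes moved by more. With the value table, NPC1 against EpiSC gave 42.0% in the set and 37.9% over all called genes. For NPC2 against EpiSC it gave 43.3% and 38.8%. The main scaling gave 50.9% and 57.7%, and 52.5% and 59.0%. The set thus went from under the share of all genes to over it.

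With the replicate block, 26 genes of the set were higher and 25 lower in NPC1 than in EpiSC, 30 and 29 in NPC2 than in EpiSC, and 26 and 23 in NPC2 than in NPC1. It ended the calls of Fbn1 in NPC1 against EpiSC (adjusted p = 0.0748) and of Itgav in NPC2 against NPC1 (adjusted p = 0.0558). Genes near background have bounds alone, and 18 genes had no test.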
